A study of Mus musculus with 577 samples.

Results

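The genes described here are 8 members of the p53 network: the transcription factors Trp53 and Trp63, the p53 inhibitors Mdm2 and Mdm4, and the p53 target genes Cdkn1a, Ccng1, Bbc3 and Sesn2. They were taken by gene symbol from every gene count table, 8 of 22060 protein-coding genes, in 562 of the series' 577 libraries. The other 15 libraries hold reads over exons and exon-exon junctions. The members were chosen by earlier results of these data: Trp53 was selected on its mean levels in dissociated against captured stem cells and in granulosa cells at the 2 positions. Those differences and the oocyte stages are therefore given as descriptions without a test.

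The series compared RNA from single cells cut out of tissue sections by laser capture microdissection (LCM) with RNA from dissociated cells, using DRaqL, a lysis step for LCM cells that is followed directly by cDNA amplification. Mouse embryonic stem cells (mESCs) were grown in 2iLIF, which holds CHIR99021 at 3 µM, PD0325901 at 0.4 µM and LIF at 1 U/µL. They were collected as fresh dissociated cells (45 libraries) or captured from sections of a frozen, ethanol-fixed cell block (36 libraries), and both were read by SC3-seq, which counts reads near transcript 3′ ends. No genetic change or agent beyond the culture inhibitors is named, and no line or clone is given. Ovarian cells came from female mice 8 weeks old. Their strain is not given in the sources used here. Granulosa cells were labelled neighboring or non-neighboring to the oocyte. Captured oocytes were labelled as in primary follicles or as secondary-antral. The ovary sections were alcohol-fixed and read by DRaqL-SC3-seq, SMART-Seq v4, DRaqL-SMART-Seq v4, LCM-seq or DRaqL-Smart-seq2, and a further set was fixed in formalin for 24 h and read by DRaqL-Protease-Smart-seq2. In a same-mouse set, an ovary of 1 animal was frozen for LCM and the opposite ovary was dissociated for Smart-seq2. The dissociated cells came from complexes of oocyte and cumulus cells of fully grown follicles, and their oocytes form a separate group called grown. The dissociated granulosa cells were sorted by attachment to the oocyte, which stands for position in that set. DRaqL-SC3-seq was also run on 7 neighboring and 7 non-neighboring pools of 10 granulosa cells from early antral follicles, on 7 bulk granulosa samples and on 8 oocytes sampled in 2 serial sections each. A section can cut through a cell, so a captured cell may be part of a cell.

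p53, the protein of Trp53, is a transcription factor that is kept low in unstressed cells and accumulates after DNA damage, when it switches on genes that stop the cell cycle or start cell death. MDM2 is a ubiquitin ligase that marks p53 for degradation and is itself a p53 target, and MDM4 binds p53 and blocks its activity. In the ovary p63, the product of Trp63, is the family member known for its role in resting oocytes, where a form that carries the transactivation domain removes oocytes with damaged DNA.

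Protein-coding reads per library ran from 12748 in a dissociated granulosa cell to 17506401 in an oocyte section, and 1 read was therefore worth very different amounts of RPM (reads of a gene scaled to a common total of protein-coding reads per library). Levels are given as log2(RPM+1), mean ± SD over cells. The labels name no animals for single cells, so a group of single cells counts as 1 sample: its SD describes cells, and no test was made between such groups. Intervals of shares (exact Clopper-Pearson) and of summed reads (exact Poisson) cover counting error only. The 14 oocyte markers summed to a median of 36922 RPM in secondary-antral oocytes and 9447 RPM in primary oocytes of DRaqL-SC3-seq, and the 10 granulosa markers to 5628 and 6258 RPM in neighboring and non-neighboring granulosa cells. The 5 pluripotency markers summed to 1524 RPM in fresh and 1499 RPM in LCM mESCs, where 5 of the 10 granulosa markers were at 0 in each group.

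All 8 genes lie on GRCm38 (GENCODE M21): Trp53 at chr11:69580359-69591873 and Trp63 at chr16:25683763-25892102 on the plus strand, Mdm2 at chr10:117688875-117710758 and Mdm4 at chr1:132959484-133030561 on the minus strand, Cdkn1a at chr17:29090976-29100727 on the plus strand, Ccng1 at chr11:40748552-40755311 on the minus strand, Bbc3 at chr7:16308393-16318205 on the plus strand and Sesn2 at chr4:132492032-132510501 on the minus strand. Trp63, Mdm4, Cdkn1a and Sesn2 overlap other annotated genes, so reads within the shared stretches are uncertain for these 4 genes.

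**Figure D1:**
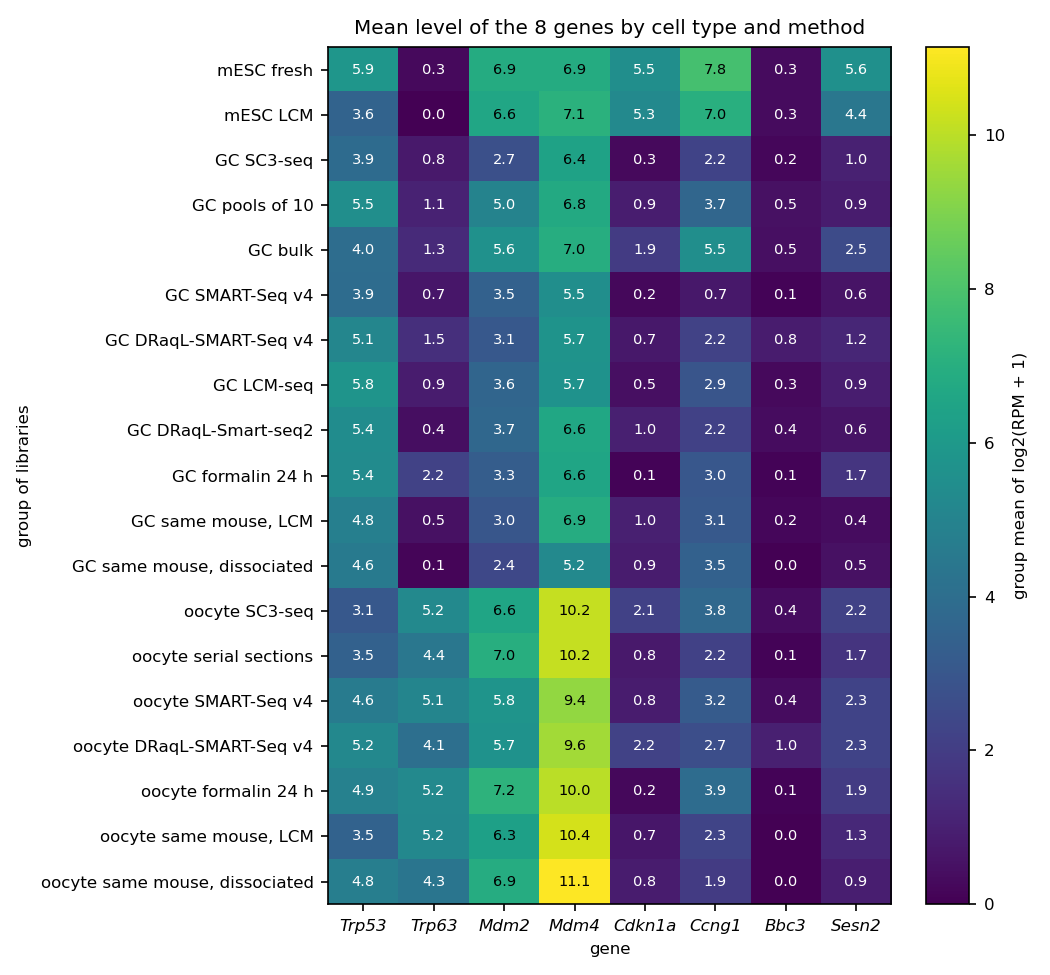
Mean log2(RPM+1) of the 8 genes (columns) in groups of libraries (rows). Colour gives the mean over the cells or samples of a group, and the scale is shared by all genes. Trp63, Mdm2 and Mdm4 are higher in each oocyte group than in the granulosa cells of the same set, with Mdm4 at 10.18 in DRaqL-SC3-seq oocytes against 6.43 in granulosa cells, and Bbc3 is near 0 throughout.

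Over the DRaqL-SC3-seq groups and the fresh mESCs, Trp53 was highest in fresh mESCs (5.85 ± 1.73, n = 45), followed by the non-neighboring pools (5.77 ± 0.92, n = 7), the neighboring pools (5.25 ± 1.75, n = 7), non-neighboring granulosa cells (5.06 ± 3.48, n = 26), bulk granulosa samples (3.98 ± 1.52, n = 7), LCM mESCs (3.56 ± 2.65, n = 36), serial oocyte sections (3.47 ± 0.77, n = 16), primary oocytes (3.16 ± 1.98, n = 14), secondary-antral oocytes (3.02 ± 1.11, n = 30) and neighboring granulosa cells (2.96 ± 3.12, n = 31). Each neighbour in this order differed by less than the SD over cells or samples. Across the means of all 34 groups, the genes whose pattern was most like that of Trp53 were Ppat, with a Pearson r of 0.69, Asxl2 with 0.67, Elavl1 and Nedd4 with 0.66 each and Actr6 with 0.65. Those nearest to Trp63 were Farp2 and Wdr93 with 0.92 each, Ttc39a and Slc25a26 with 0.91 each and Pnldc1 with 0.89. These correlations were ranked over 11819 genes, and the 34 groups share methods, animals and depth.

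Trp63 and Trp53 were also read along their exons in 5 secondary-antral oocytes and 10 mESCs prepared with a Y-shaped adapter. In the oocytes, 11 of 21 annotated Trp63 exons had reads, and 3 passed a TMM-scaled value of 2 in at least 1 library. The 3′-most exon, chr16:25889008-25892102, had between 27 and 88 reads in each of 5 oocytes, 243 in all, and the 2 annotated versions of this exon share these reads. The terminal exon of a shorter form, chr16:25876627-25877144, had 75, 19, 7, 4 and 0 reads in the 5 oocytes. The exon before it, chr16:25870997-25871133, had 30 reads in all. The first exon of the form without the transactivation domain, chr16:25801916-25802101, had 0 reads, and the exon at chr16:25764164-25764296, upstream of it, had 1, so the reads do not separate the 2 starts. In the 10 mESCs no Trp63 exon had a read. The coding sequences on which the short and the long 3′ end part are shown to make that choice visible, with the shared exon in lower case (chr16:25871104-25871133, plus strand) and the first 30 bases of the following coding exon in capitals, at chr16:25876627-25876656 for the short and chr16:25882527-25882556 for the long end.
Trp63 short 3′ end: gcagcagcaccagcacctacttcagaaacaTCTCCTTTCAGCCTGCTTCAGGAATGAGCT
Trp63 long 3′ end: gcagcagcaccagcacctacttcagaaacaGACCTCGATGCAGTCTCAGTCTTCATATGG
The exon that opens the long end, chr16:25882527-25882684, had 1 read in all. The oocyte junction table lists 2 Trp63 junctions, with at most 7 reads in an oocyte and reads in 3 of 5, but gives no positions, so they could not be tied to either end.

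**Figure D2:**
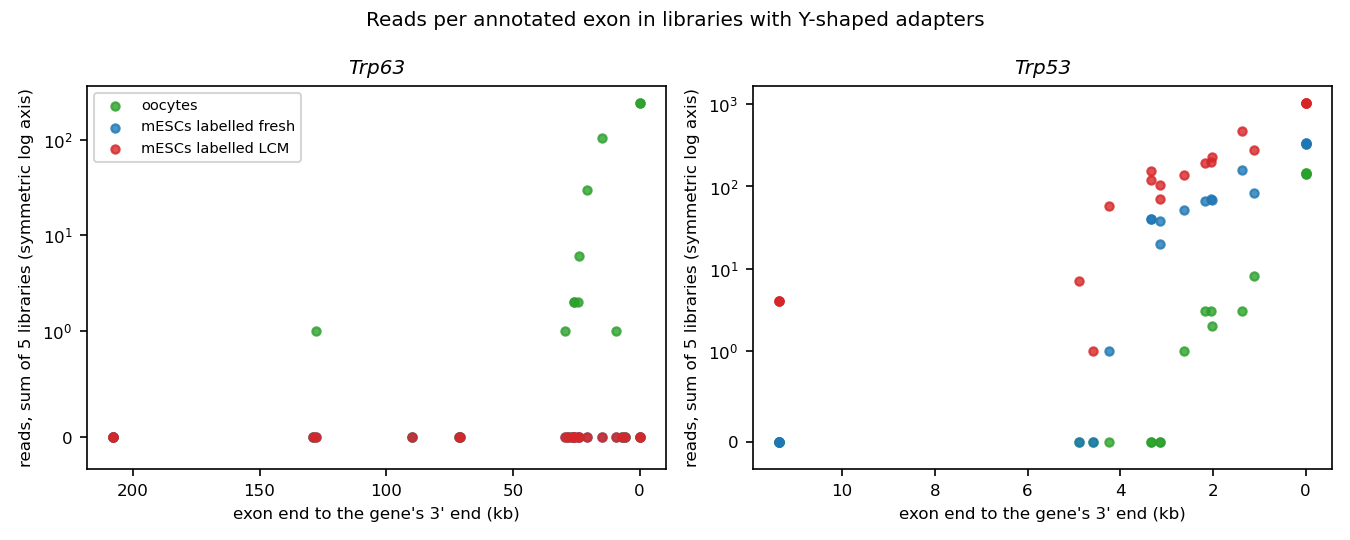
Reads per annotated exon, summed over 5 libraries (symmetric log axis), against the distance from the exon's end to the gene's 3′ end in kb, for Trp63 and Trp53 in oocytes and in mESCs labelled fresh or LCM. Reads pile up at the 3′ end in both genes, with 243 reads in the last Trp63 exon of oocytes and none in mESCs, and Trp53 exons far from the 3′ end carry reads in mESCs.

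The last Trp53 exon had 144 reads over the 5 oocytes, between 16 and 40 in each. In mESCs it had 1042 reads over the 5 libraries labelled LCM, between 37 and 452 in each, and 340 over those labelled fresh, of which 277 came from 1 library and 1 library had 0. For these 10 mESC libraries the labels go against those of the 3′ libraries: each was most correlated, over 9614 genes, with a 3′ library of the other label (r between 0.73 and 0.82, and at most 0.19 for the second nearest), so the labels are quoted as given and no direction between them is drawn. Trp53 has 2 acceptor sites for its last coding exon, 96 bases apart. The upstream site is used by a transcript with a different, shorter coding end. Both joined sequences are shown, with the end of the shared exon in lower case (chr11:69590733-69590762, plus strand) and the coding part of the last exon in capitals, at chr11:69591254-69591305 for the upstream and chr11:69591350-69591428 for the downstream acceptor.
Trp53 upstream acceptor: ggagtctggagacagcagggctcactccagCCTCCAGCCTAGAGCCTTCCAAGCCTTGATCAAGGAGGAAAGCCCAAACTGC
Trp53 downstream acceptor: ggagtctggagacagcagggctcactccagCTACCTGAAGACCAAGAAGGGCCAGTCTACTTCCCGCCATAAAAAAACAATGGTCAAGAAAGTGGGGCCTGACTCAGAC
Over all 10 mESC libraries, 18 of 92 reads across these junctions used the upstream site, or 19.6% (95% interval 12.0 to 29.1). The share varied between libraries. It was 10 of 24 reads in the only library labelled fresh with such reads, and among those labelled LCM it was 5 of 11, 3 of 10, 0 of 15, 0 of 31 and 0 of 1. The interval for 0 of 31 reaches up to 11.2%, and that for 10 of 24 starts at 22.1%. Both treat reads as independent, but reads of amplified cDNA can be copies of a few molecules. These intervals therefore do not show that the cells differ. Of the other members, Mdm4 had a median of 65 and at least 5 junction reads per oocyte, summed over 13 listed junctions. Cdkn1a, with 2 junctions listed, had junction reads in all 10 mESCs. Ccng1, with 5 listed, had them in 9 of 10. Mdm2, Bbc3 and Sesn2 had none listed.

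In mESCs as labelled, Trp53 and Sesn2 were lower in LCM cells than in fresh cells and the other members differed by less than 1 on the log2 scale. This direction rests on the labels of the 3′ libraries, since the comparison with the Y-adapter libraries shows only that the labels of the 2 sets go against each other. Trp53 was detected in 45 of 45 fresh cells, at 0.958 RPM in the lowest, 86.1 in the median and 409 in the highest. In LCM cells it was detected in 34 of 36, with a median of 13.2 RPM and a highest value of 399. The 2 ranges overlap over nearly their whole length. The mean log2 level was 3.56 ± 2.65 (n = 36) in LCM and 5.85 ± 1.73 (n = 45) in fresh cells, a difference of -2.29. Summed over cells the gap was smaller, 50.97 RPM (49.3 to 52.7) in LCM and 94.1 RPM (92.1 to 96.1) in fresh cells. Sesn2, a stress-induced inhibitor of mTORC1 signalling, had a median of 35.2 RPM in LCM cells, which ran from 0 to 190, and 54.3 RPM in fresh cells, which ran from 2.63 to 230, and its means of 4.44 ± 2.32 and 5.60 ± 1.42 differed by -1.17.

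Of the 8 members, 2 were below -1, beside 7.42% of 13108 genes. None was above 1, beside 0.641%. Mdm2 was at 6.62 ± 1.92 in LCM and 6.86 ± 1.62 in fresh cells, and Mdm4 at 7.13 ± 1.11 and 6.88 ± 1.07. Cdkn1a, which encodes the cyclin-dependent kinase inhibitor p21, was detected in every cell of both groups, at 5.26 ± 1.61 and 5.51 ± 1.12. Ccng1, the p53-induced cyclin G1, was at 7.01 ± 1.42 and 7.84 ± 1.03. Bbc3, which encodes the pro-apoptotic protein PUMA, was detected in 6 of 36 LCM and 11 of 45 fresh cells. Trp63 had reads in 2 of 36 LCM cells and 12 of 45 fresh cells, reaching 34.2 RPM in a fresh cell. Of 46 genes in 6 lists of p53 family members, regulators, DNA damage kinases and targets, 42 passed the filter on low levels, 7 were below -1 and 0 above 1, with a median difference of -0.34 beside -0.19 for all genes. Next to Trp53, the listed genes with the largest differences were Zmat3, an RNA-binding p53 target, at 4.66 ± 1.97 and 5.86 ± 1.45, and Sesn2.

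**Figure D3:**
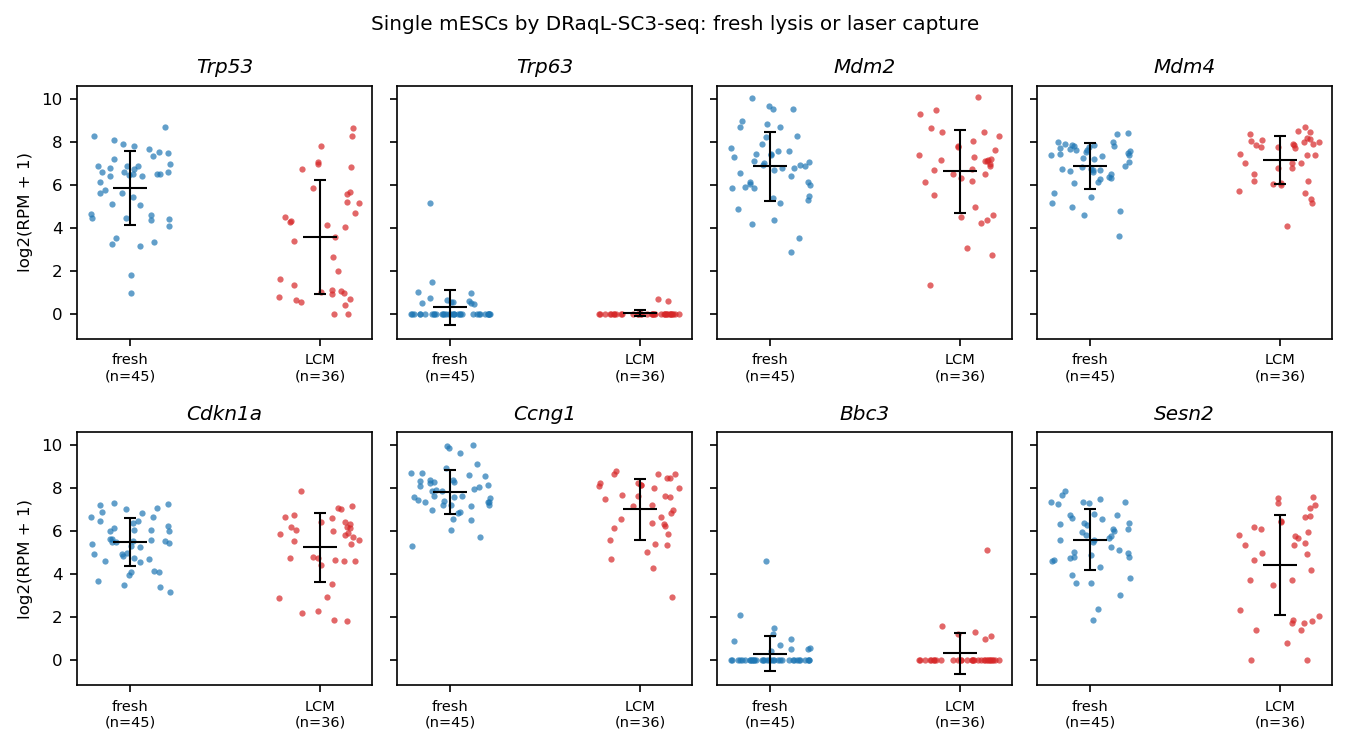
log2(RPM+1) of the 8 genes in single mESCs, fresh (45 cells) and LCM (36 cells); each point is a cell, and the bar marks the mean with its SD. LCM cells reach lower Trp53 values than fresh cells (means 3.56 and 5.85) while Mdm2, Mdm4 and Cdkn1a sit at like heights in both groups.

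In granulosa cells, Trp53 was higher in non-neighboring cells in DRaqL-SC3-seq and lower in most other methods. With DRaqL-SC3-seq it was detected in 18 of 31 neighboring cells (58.1%, 39.1 to 75.5) and 20 of 26 non-neighboring cells (76.9%, 56.4 to 91.03). The median was 3.10 RPM in neighboring cells and 57.8 RPM in non-neighboring cells, and the highest cells reached 515 and 1414 RPM. Both groups held cells at 0, and their ranges overlap. The mean log2 levels of 2.96 ± 3.12 and 5.06 ± 3.48 differed by 2.10. The study lists Trp53 among genes higher in these non-neighboring cells, so this difference is not independent evidence of its direction.

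The other methods gave Trp53 differences of -0.27 for SMART-Seq v4, -0.41 for DRaqL-SMART-Seq v4, -0.87 for LCM-seq, -0.65 for DRaqL-Smart-seq2, -1.13 for the formalin set, -0.94 for same-mouse LCM cells and 1.14 for same-mouse dissociated cells. Trp53 was thus higher in non-neighboring cells in 2 of 8 methods, and in 3 of 8 by summed reads, where LCM-seq turned to 0.24. Among these is the dissociated set, where position means attachment to the oocyte after dissociation and not place in a section. In the formalin set its level was 5.93 ± 2.49 (n = 12) in neighboring and 4.80 ± 2.78 (n = 12) in non-neighboring cells, and in same-mouse LCM cells 5.27 ± 2.67 and 4.33 ± 2.59 (n = 35 each). In dissociated cells it was 3.88 ± 3.11 (n = 14) and 5.02 ± 2.84 (n = 21), where 36% of all genes were above 1. In the SMART-Seq v4, DRaqL-SMART-Seq v4, LCM-seq, DRaqL-Smart-seq2 and formalin sets each in-line index holds cells of a single position, so index and position cannot be told apart there. RNA of oocyte markers moved with position: its median was 2943 RPM in neighboring and 64.2 RPM in non-neighboring DRaqL-SC3-seq cells, 1111 and 38.4 RPM with SMART-Seq v4, and 1545 and 29.8 RPM with LCM-seq. The median was also higher in neighboring cells in the other captured sets. In dissociated cells the medians were 157 and 155 RPM, but the highest cell held 19611 RPM in neighboring and 2284 RPM in non-neighboring cells. The paper reports profiles mixed with those of oocytes more often in attached than in other dissociated cells. Such cells were kept in the dissociated set, whereas those of DRaqL-SC3-seq were set aside. RNA of 5 theca and interstitial markers moved the other way, with medians of 13.95 and 144 RPM in DRaqL-SC3-seq and 57.6 and 3306 RPM in dissociated cells, and its part in the differences was not tested. The 3 blood markers had a median of 0 in each position but reached 49954 RPM in a dissociated neighboring cell. The 2 endothelial markers had medians of 9.86 and 8.49 RPM in DRaqL-SC3-seq. Cells whose oocyte markers reached a set fraction of the median of the oocytes in the same set were then left out. This kept 23 non-neighboring and 18 neighboring DRaqL-SC3-seq cells, with a Trp53 difference of 2.04. The cells kept can still hold oocyte RNA below that limit, and its part in the difference was not tested.

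Among the members, the count past a difference of 1 was small in each method. With DRaqL-SC3-seq Trp53 alone of the 8 members was above 1, beside 10.5% of genes, and 0 were below -1, beside 3.98%. With SMART-Seq v4 Mdm2 and Mdm4 were below -1, beside 8.62%, and 0 above 1, beside 15.1%. With DRaqL-SMART-Seq v4 Trp63 was above 1, beside 13.6%, and 0 below -1, beside 8.26%. With LCM-seq Mdm4 and Ccng1 were below -1, beside 16.3%, and 0 above 1, beside 6.01%. With DRaqL-Smart-seq2 0 were above 1, beside 7.14%, and 0 below -1, beside 11.7%. In the formalin set Sesn2 was above 1, beside 10.7%, and Trp53 below -1, beside 18.3%. In same-mouse LCM cells Cdkn1a and Ccng1 were below -1, beside 5.7%, and 0 above 1, beside 8.25%. In dissociated cells Trp53 was above 1, beside 36%, and 0 were below -1, beside 3.68%. Between 6 and 8 members passed the filter on low levels in each method.

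Mdm4 was lower in non-neighboring cells in 7 of 8 methods, by 2.36 with LCM-seq at its widest. By summed reads it was also lower in 7 of 8, but the sign turned in 2 methods, with DRaqL-Smart-seq2 going from -0.54 to 0.0004. With LCM-seq Mdm4 had a median of 142 RPM, from 0 to 587, in 17 neighboring cells and 46.4 RPM, from 0 to 186, in 20 non-neighboring cells, at 6.96 ± 2.02 and 4.60 ± 2.46. With SMART-Seq v4 it was at 6.65 ± 3.19 and 4.35 ± 3.54 (n = 17 each), whereas with DRaqL-SC3-seq it was at 6.47 ± 1.79 and 6.38 ± 1.58. Mdm2 was higher in non-neighboring cells in 7 of 8 methods, by at most 0.87, a count that fell to 4 of 8 by summed reads (-0.49 in DRaqL-SC3-seq, -0.38 with LCM-seq and -0.53 in same-mouse LCM cells). It was lower with SMART-Seq v4, at 4.33 ± 3.62 in neighboring and 2.60 ± 3.10 in non-neighboring cells. Cdkn1a was detected in between 0 of 12 granulosa cells (non-neighboring, formalin set) and 8 of 15 (neighboring, DRaqL-Smart-seq2). In the same-mouse LCM set it had reads in 10 of 35 neighboring and 3 of 35 non-neighboring cells, at 1.65 ± 2.79 and 0.32 ± 1.23. Ccng1 was at 3.71 ± 3.53 and 2.49 ± 2.40 in the same cells. Trp63 was at 0.82 ± 1.87 in neighboring and 2.19 ± 2.51 in non-neighboring cells of DRaqL-SMART-Seq v4, with reads in 5 of 20 and 10 of 19 cells. Sesn2 was at 1.06 ± 1.42 and 2.36 ± 2.97 in the formalin set, and Bbc3 differed by between -0.26 and 0.23.

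**Figure D4:**
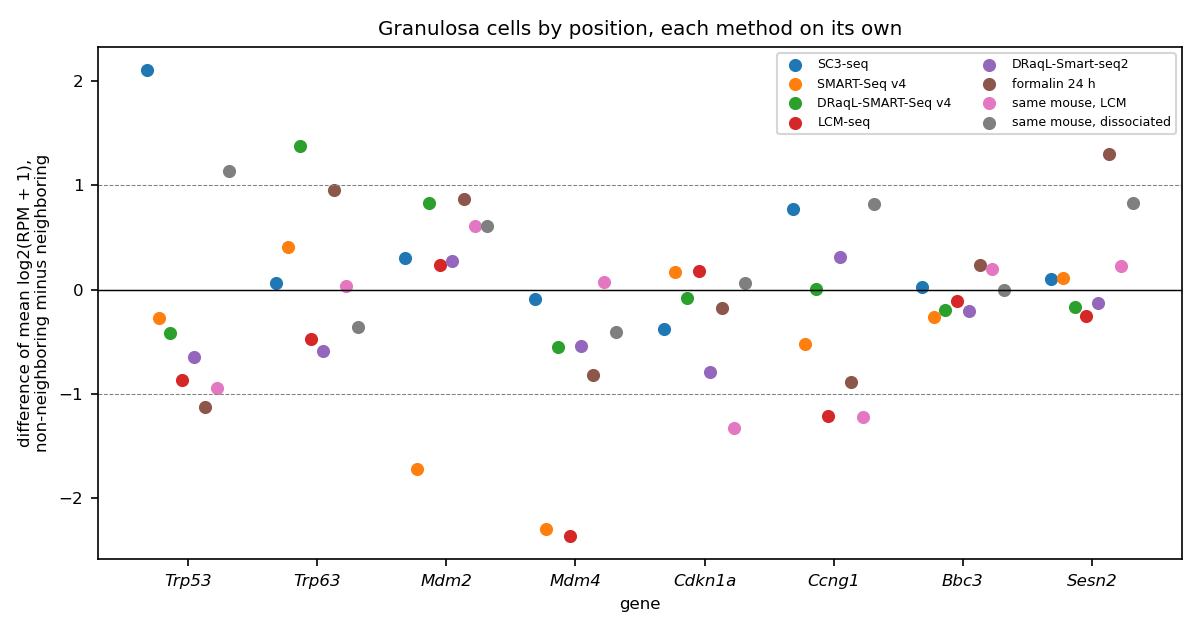
Difference in mean log2(RPM+1), non-neighboring minus neighboring granulosa cells, for the 8 genes in 8 methods; each point is a method and the dashed lines mark differences of 1 and -1. As a difference of means, Trp53 is above 0 in DRaqL-SC3-seq (2.10) and in dissociated cells (1.14), which were sorted by attachment to the oocyte. It is below 0 in the other methods, and by summed reads also above 0 with LCM-seq (0.24). Mdm4 is below 0 in 7 of 8, and summed reads turned its sign in 2 methods.

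Of the 46 listed genes, those with the largest position differences among genes at a mean of at least 4 changed from method to method. Perp, a membrane protein of apoptotic cells, was lower in non-neighboring cells with LCM-seq (1.65 ± 2.67 and 4.53 ± 3.19 in neighboring cells) and with DRaqL-Smart-seq2 (1.58 ± 2.54 and 4.79 ± 2.44). Chek1, a DNA damage checkpoint kinase, differed by -2.05 and -1.59 in the same methods, and Atr, the kinase that activates it, by -2.16 in DRaqL-Smart-seq2. Rfwd2, a ubiquitin ligase of p53, differed by 1.97 with SMART-Seq v4, -0.78 with DRaqL-SMART-Seq v4 and 1.46 in same-mouse LCM cells, where Trp53bp1, a p53-binding repair protein, differed by 2.14. Usp7, which removes ubiquitin from p53 and MDM2, differed by -0.47 with DRaqL-SC3-seq, -1.35 with DRaqL-SMART-Seq v4 and -1.71 in same-mouse LCM cells. Atm, a kinase activated by DNA breaks, differed by -0.61 with DRaqL-SMART-Seq v4. Rrm2b, a p53-induced ribonucleotide reductase subunit, differed by 0.20 with DRaqL-SC3-seq and 1.29 in dissociated cells. The formalin set gave 3.15 for Trp53inp1, -2.79 for Ei24 and 2.29 for Sesn3, all p53-linked stress or death genes. The dissociated cells gave 3.20 for Prkdc, the DNA-dependent protein kinase, and 2.80 for Ep300, an acetyltransferase and p53 coactivator.

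The pools of 10 cells were the one comparison with replicates. The labels do not say whether pools came from separate animals, so p-values measure only the spread between these pools. Trp53 had a median of 47.1 RPM in neighboring pools, from 2.47 to 142, and 54.5 RPM in non-neighboring pools, from 19.7 to 171. The non-neighboring pools lie within the neighboring range except for the highest. The log2 fold change, non-neighboring over neighboring, was 0.38 with an interval of -1.22 to 1.98, which holds the DRaqL-SC3-seq cells' direction and its opposite (edgeR quasi-likelihood test, adjusted p = 0.998). Mdm4 had a median of 166 RPM in neighboring pools, from 62.5 to 507, and 95.3 RPM in non-neighboring pools, from 34.99 to 127, and 4 of 7 neighboring pools lay above every non-neighboring pool. Its fold change was -1.06 (-2.17 to 0.05). Mdm2 fold change was -0.90 (-2.96 to 1.159), with 1 pool of each position near 0, and Ccng1 fold change 0.83 (-2.04 to 3.69), with 3 of 7 neighboring pools at 0. All 4 had an adjusted p of 0.998 over 9704 genes tested with edgeR.

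No member was called, beside 0.453% of genes (44, all lower in non-neighboring pools). At an unadjusted p under 0.05 the counts were 0 members and 402 genes by edgeR, and by DESeq2 1 member, Mdm4, which had an adjusted p of 0.653, and 657 genes. Trp63, Cdkn1a, Bbc3 and Sesn2 failed the filter on low counts. Of the 46 listed genes 27 were tested and 0 called by edgeR, and 1, the exonuclease gene Aen, had an unadjusted p under 0.05 (log2 fold change -3.06, edgeR p = 0.0222, adjusted p = 0.966). The oocyte markers summed to between 856 and 8865 RPM in neighboring pools and between 2.34 and 151 RPM in non-neighboring pools, the theca and interstitial markers to medians of 27.2 and 892 RPM, and their part in the fold changes was not tested. In the 7 bulk granulosa samples, where fewer expressing cells and less RNA per cell cannot be told apart, Trp53 was at 3.98 ± 1.52, from 1.04 to 60.2 RPM, Mdm2 at 5.62 ± 0.64, Mdm4 at 6.97 ± 0.41 and Ccng1 at 5.51 ± 0.53. There Cdkn1a was at 1.94 ± 1.68, Sesn2 at 2.53 ± 0.91, Trp63 at 1.33 ± 0.85 and Bbc3 at 0.46 ± 0.57.

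Oocytes held more Trp63, Mdm2 and Mdm4 RNA than granulosa cells in all 6 methods with both cell types, as means of log2(RPM+1). In DRaqL-SC3-seq, Trp63 was detected in 44 of 44 oocytes, with a median of 33.9 RPM and a range of 1.35 to 289, and in 21 of 57 granulosa cells, with a median of 0 and a highest cell at 185 RPM. Of the 57 granulosa cells, 19 lay at or above the lowest oocyte, so the groups overlap. Its means were 5.24 ± 1.27 and 0.77 ± 1.32, and over the 6 methods it was higher in oocytes by between 2.59 and 4.71. By summed reads, computed for Trp63 in 5 of 6 methods, the log2 ratio was between 0.52 and 4.61. Mdm4 had a median of 1126 RPM in the DRaqL-SC3-seq oocytes, from 551 to 2282, and 67.8 RPM in granulosa cells, from 4.82 to 1077. Its means were 10.18 ± 0.47 and 6.43 ± 1.68, and its difference was between 3.41 and 5.91 over the methods. Mdm2 was at 6.56 ± 1.03 and 2.70 ± 2.68, and its difference was between 2.32 and 4.46, although the ratio of summed reads turned to -0.34 with SMART-Seq v4, where 1 granulosa cell reached 1835 RPM. Sesn2 was higher in oocytes by between 0.22 and 1.67, a direction that the ratio of summed reads turned in DRaqL-SC3-seq (-0.48) and in the formalin set (-2.22).

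Trp53, by contrast, differed by between -1.28 and 0.70 in mean log2 level, with 3 methods on each side of 0, whereas by summed reads it was lower in oocytes in 6 of 6 methods, with log2 ratios between -2.95 and -1.29. Cdkn1a differed by between -0.31 and 1.87 and Ccng1 by between -1.54 and 2.47, with the Ccng1 ratio of summed reads below 0 in 5 of 6 methods. In DRaqL-SC3-seq 6 of 8 members were above 1, beside 61.4% of genes, and with SMART-Seq v4 5 of 8, beside 64.4%. The counts were 5 with DRaqL-SMART-Seq v4, beside 42.4%, and 3 each in the formalin set, the same-mouse LCM cells and the dissociated cells, beside 46.4%, 50% and 52.1%. Trp53 in same-mouse LCM cells and Ccng1 in dissociated cells were below -1, beside 9.44% and 14.7%. In the other methods 0 members were below -1, beside 4.45% in DRaqL-SC3-seq, 3.61% with SMART-Seq v4, 9.37% with DRaqL-SMART-Seq v4 and 7.69% in the formalin set. Of the listed genes, Chek1 was higher in oocytes by 4.65 in DRaqL-SC3-seq (5.98 and 1.33) and by 5.84 in dissociated cells, and Rchy1, a p53 ubiquitin ligase, by 4.69 and 5.40. Aen was higher by 4.55 in the formalin set and Trp53inp1 by 4.56 in same-mouse LCM cells.

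Across oocyte stages, Trp63, Cdkn1a, Ccng1 and Trp53 had lower means in secondary-antral than in primary oocytes in all 4 methods. Trp63 in DRaqL-SC3-seq had a median of 89.5 RPM, from 9.83 to 289, in 14 primary oocytes and 28.3 RPM, from 1.35 to 77.4, in 30 secondary-antral oocytes. The means were 6.24 ± 1.41 and 4.77 ± 0.88, and the ranges overlap. With SMART-Seq v4 the 7 primary oocytes ran from 34.8 to 104.7 RPM with a median of 77.9, the 11 secondary-antral oocytes from 6.78 to 42.4 RPM with a median of 23.8, and the means were 6.14 ± 0.50 and 4.40 ± 0.78. With DRaqL-SMART-Seq v4, 2 of 6 primary oocytes had no Trp63 read and the other 4 held 59.8 to 139 RPM, above the secondary-antral maximum of 57.8 RPM, and the means differed by -0.65. In the formalin set the 5 primary oocytes were at 15.1, 54.1, 105.6, 41.4 and 128 RPM, the 7 secondary-antral oocytes ran from 6.59 to 138 RPM around a median of 28.2, and the means differed by -0.94.

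Cdkn1a differed most with DRaqL-SMART-Seq v4, where its 6 primary oocytes ran from 8.29 to 34.8 RPM with a median of 27.2 and its 9 secondary-antral oocytes from 0 to 3.87 RPM, without overlap. The means of 4.52 ± 0.71 and 0.64 ± 0.86 differed by -3.88. The share of all genes without overlap between these 6 and 9 oocytes was not computed, so the separation is not known to be particular to Cdkn1a. In the other methods its primary and secondary-antral levels were 3.12 ± 2.30 and 1.67 ± 1.55 (DRaqL-SC3-seq), 1.11 ± 2.01 and 0.66 ± 1.23 (SMART-Seq v4), and 0.59 ± 1.32 and 0 (formalin, where 1 of 5 primary and 0 of 7 secondary-antral oocytes had reads). Ccng1 went from 4.78 ± 2.08 to 3.31 ± 1.50 in DRaqL-SC3-seq, from 4.52 ± 1.57 to 2.34 ± 1.59 with SMART-Seq v4, from 3.08 ± 2.60 to 2.41 ± 1.94 with DRaqL-SMART-Seq v4 and from 5.25 ± 1.83 to 2.98 ± 1.68 in the formalin set. Trp53 differed by between -1.05 and -0.14.

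The inhibitors did not share this direction. Mdm2 was higher in secondary-antral oocytes in 3 methods, at 5.76 ± 1.47 in primary and 6.94 ± 0.39 in secondary-antral oocytes of DRaqL-SC3-seq, and lower in the formalin set, at 7.80 ± 0.55 and 6.75 ± 1.25. Mdm4 was at 10.27 ± 0.71 and 10.13 ± 0.32 in DRaqL-SC3-seq, 8.65 ± 0.54 and 9.80 ± 0.25 with SMART-Seq v4, 9.17 ± 0.46 and 9.91 ± 0.34 with DRaqL-SMART-Seq v4, and 9.84 ± 0.99 and 10.08 ± 0.48 in the formalin set. With SMART-Seq v4 its highest primary oocyte, at 705 RPM, was just above the lowest secondary-antral oocyte, at 672 RPM. Sesn2 differed by between -0.22 and 1.23 and Bbc3 by between -0.62 and 0.30.

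In DRaqL-SC3-seq 3 of 8 members were below -1 between stages, beside 15% of genes, and 1 above 1, beside 31.7%. With SMART-Seq v4 the counts were 3, beside 16.2%, and 2, beside 31.7%. With DRaqL-SMART-Seq v4 they were 1, beside 22.8%, and 1, beside 33.7%, and in the formalin set 2, beside 25.4%, and 0, beside 26.8%. Granulosa marker RNA was higher in the primary oocytes of each method, with medians of 421 and 77.99 RPM in DRaqL-SC3-seq, 533 and 224 with SMART-Seq v4, 330 and 167 with DRaqL-SMART-Seq v4 and 1041 and 400 in the formalin set, and its part in these differences was not tested. In the formalin set index and stage cannot be told apart. Among the listed genes, Ddit4, an mTORC1 inhibitor, was higher in secondary-antral oocytes by 3.56, 3.92 and 3.24 in DRaqL-SC3-seq, SMART-Seq v4 and the formalin set. Chek1 was higher by 3.56 with SMART-Seq v4 and 4.14 with DRaqL-SMART-Seq v4, Trp53inp1 by 3.42 in DRaqL-SC3-seq, and Gtse1, a p53-binding cell cycle protein, by 4.19 in the formalin set. The pro-apoptotic gene Bax differed by -2.90 in DRaqL-SC3-seq, Sesn1 by -3.15 with DRaqL-SMART-Seq v4, and Sesn3 by -2.36 with SMART-Seq v4 and -2.76 in the formalin set.

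**Figure D5:**
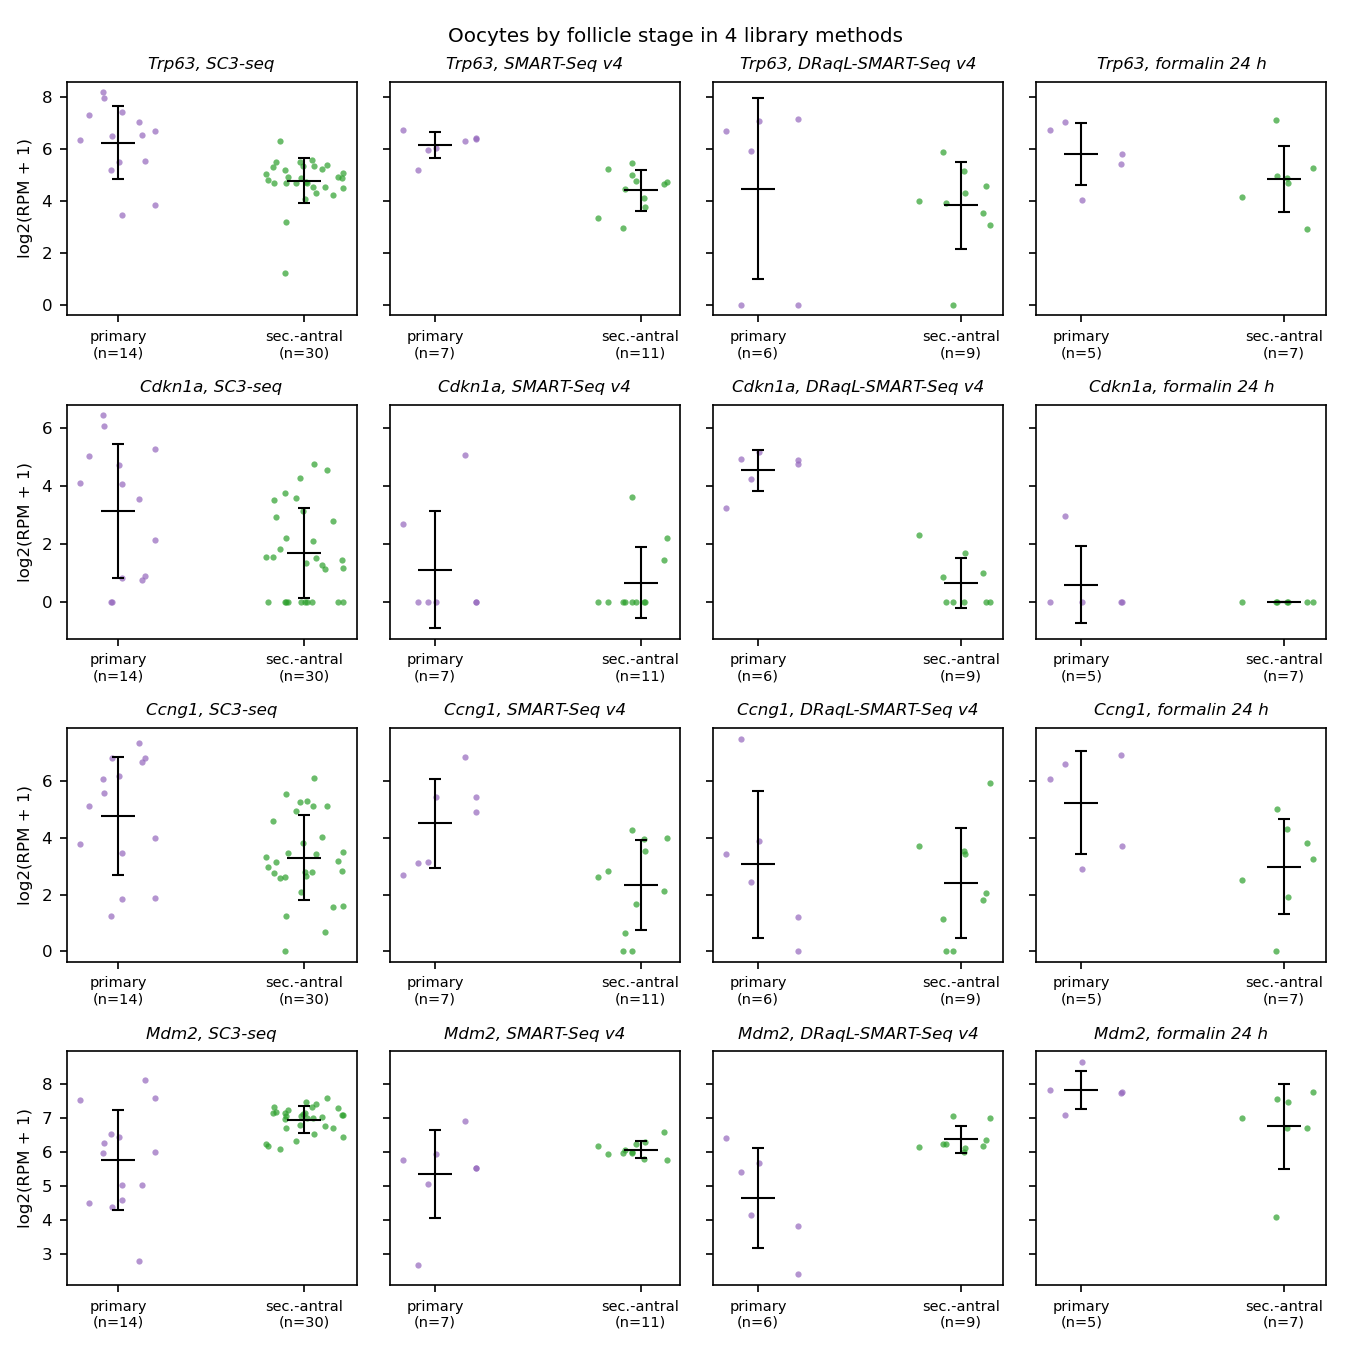
log2(RPM+1) of Trp63, Cdkn1a, Ccng1 and Mdm2 in primary and secondary-antral oocytes of 4 methods; points are oocytes and bars give the mean and SD. The primary oocytes have the higher Trp63 mean in each method (6.24 against 4.77 in DRaqL-SC3-seq), and with DRaqL-SMART-Seq v4 the Cdkn1a values of the 2 stages do not overlap. The share of all genes without such overlap was not computed.

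The same-mouse set compared captured with dissociated cells of 1 animal, where capture, ovary, choice of follicles and chemistry differ together. The captured oocytes are labelled secondary-antral, whereas the dissociated cells came from fully grown follicles. Only the dissociated cells were isolated in medium with dibutyryl-cAMP, a cAMP analog. In granulosa cells (70 LCM and 35 dissociated) Mdm4 was at 6.89 ± 1.94 in LCM and 5.24 ± 2.85 in dissociated cells, a difference of 1.65, and the other members differed by between -0.39 and 0.57. Trp53 was at 4.80 ± 2.66 and 4.56 ± 2.96. Of the members 1 of 8 was above 1, beside 15.1% of genes, and 0 below -1, beside 18.4%. In oocytes (8 LCM and 14 dissociated) Trp53 had a median of 8.45 RPM, from 2.99 to 25.8, in LCM and 31.7 RPM, from 8.41 to 46.99, in dissociated oocytes, with overlapping ranges. Its means of 3.52 ± 1.02 and 4.76 ± 0.76 differed by -1.23. Trp63 was at 5.22 ± 1.61 and 4.34 ± 0.95 and Mdm4 at 10.43 ± 0.39 and 11.15 ± 0.18. Here 0 of 8 were above 1, beside 21.9%, and 1 below -1, beside 18.6%. The listed genes with the largest differences were Atr (2.78), Bax (-2.73) and Atm (2.30) in granulosa cells, and in oocytes Xpc (2.64), a damage-recognition protein of nucleotide excision repair, Ei24 (2.14) and Ddb2 (-1.76), which encodes another such protein.

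Serial sections of the same oocyte showed how far the members' levels repeat. The median absolute log2 difference between the 2 sections of an oocyte (8 pairs) was 0.065 for Mdm4, against 0.158 over all pairs of sections from different oocytes, and 0.201 against 0.320 for Mdm2. It was 0.399 against 0.690 for Trp63 and 0.239 against 1.38 for Ccng1. For Trp53 it was 1.06 against 0.824, so sections of an oocyte were no closer than sections of different oocytes, and the same held for Sesn2, at 1.24 in both. Cdkn1a gave 0.757 against 0.820, with sections from 0 to 2.61. Bbc3 gave 0.041 against 0.157, with sections from 0 to 0.942, near the level of single reads. The 2 sections of an oocyte share its animal and capture, and pairs of different oocytes reuse the same sections.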

How the data were processed

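Read counts per gene, deposited by the authors, were used for 562 libraries in 8 tables. Per the labels, reads were trimmed (fastp 0.20.0, cutadapt 1.16), aligned to GRCm38 (HISAT2 2.1.0) and counted (HTSeq 0.10.0, featureCounts 2.0.1). The authors' exon and junction counts were used for 15 libraries. Some tables also hold non-coding genes, up to a median of 33.7% of reads, so RPM was computed over protein-coding genes only. Members and lists were chosen with earlier results of these data known. Single-cell groups were compared as differences of mean log2(RPM+1) (pseudocount 1), and the background was all genes with a log2 level above 4 in at least 1 cell. Only the 7 and 7 pools were tested (edgeR 4.0.16 in R 4.3.3, TMM, filterByExpr, quasi-likelihood test, Benjamini-Hochberg over all genes tested, threshold 0.05). DESeq2 1.42.0, other scalings, pseudocounts of 0.1 and 10, no filter, left-out pools, thinned and summed reads were the alternatives. The test was tried on simulated data. Differences were computed for all 8 members in every comparison of single cells, and not each is printed. The listed genes named for single cells were drawn from the 3 of 46 with the largest difference at a mean of at least 4 in a group. Not all of these are printed for each comparison. In the pools, listed genes that were called were to be named, and Aen is named for its unadjusted p. For Trp53 and Trp63, the 5 most alike genes are named. Sequences are from the GENCODE M21 transcripts. Other software was Python 3.11.15, numpy 2.4.6, pandas 2.3.3 and scipy 1.17.1.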

Additional observations from a re-analysis of the deposited data

Results flagged for a closer look

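Of 69 sets of 4 to 10 samples, each for 1 gene in 1 group, 16 had a sample far apart from the rest by Dixon's ratio. The nominal rate of this criterion, about 1 in 20, holds for normally distributed values. Many values here are 0, so the 16 cannot be set against that rate. Most of the 16 are genes near 0 in the other samples. Values are log2(RPM+1). In the pools, Trp63 was at 4.06 in neighboring pool 7 and 3.65 in non-neighboring pool 2, Bbc3 at 4.56 in the same non-neighboring pool, Cdkn1a at 2.30 in non-neighboring pool 6, Sesn2 at 4.77 in neighboring pool 7 and 2.48 in non-neighboring pool 3, and Mdm2 at 1.34 in neighboring pool 4, below the others. In oocytes, Cdkn1a was at 2.95 in formalin primary oocyte 5 and 3.26 in same-mouse LCM oocyte 1, Bbc3 at 3.91 in DRaqL-SMART-Seq v4 secondary-antral oocyte 7, 1.06 in formalin primary oocyte 1 and 1.03 in SMART-Seq v4 primary oocyte 6, and Trp63 at 0 in DRaqL-SMART-Seq v4 secondary-antral oocyte 2. Formalin secondary-antral oocyte 3 stood apart for both Trp53, at 0, and Mdm2, at 4.08, each lower than in its group. Bbc3 was at 1.63 in bulk granulosa sample 7.

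A neighboring granulosa cell that the labels set aside as mixed, and that no comparison used, held Trp63 at 10.16 (716 reads, 1145 RPM), above any oocyte of the series. Its oocyte markers summed to 11803 RPM and its granulosa markers to 1065 RPM. The 2 non-neighboring cells of this kind had no Trp63 read, with oocyte markers between 1487 and 2949 RPM.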

How the results depend on the processing

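Differences between single-cell groups depend on the scale, since many cells hold no read of a member. Of the members past 1 or -1, the count for mESCs was 2 as reported, 1 with a pseudocount of 10 and 0 by summed reads. For granulosa position it was 11, then 22 with a pseudocount of 0.1, 4 with 10 and 23 by summed reads. For oocyte stage it was 13, and 8 with a pseudocount of 10. For the same-mouse set it was 2, then 1 with a pseudocount of 10 and 6 by summed reads. The share of all genes past 1 or -1 was not computed at these alternatives, so whether these counts are particular to the members is not known. Between oocytes and granulosa cells, summed reads turned the sign of Trp53 and Ccng1 in 3 of 6 methods each, of Sesn2 in 2 and of Mdm2 and Bbc3 in 1, among them -1.22 for Ccng1 and -0.48 for Sesn2 in DRaqL-SC3-seq, -0.34 for Mdm2 with SMART-Seq v4, and -2.11 for Ccng1 and -2.22 for Sesn2 in the formalin set. The Trp53 difference in mESCs ran from -2.78 to -0.88 over its alternatives and that by position in DRaqL-SC3-seq from 1.35 to 3.52. Oocyte stage in the formalin set was also recomputed without each primary oocyte, an alternative chosen after seeing the data. The position difference without the cells high in oocyte markers could not be computed for LCM-seq and DRaqL-Smart-seq2, whose tables hold no oocytes. In the pools, 0.453% of genes tested were called as reported (44), 1.20% with DESeq2 (11 of them higher in non-neighboring pools), 0.294% without a filter (56) and 0.031% with pool number as a replicate block (3). With library totals 48 were called. Deviations of same-numbered pools correlated at between -0.00051 and 0.179, and 3 of 7 pools were most like their own number. These values do not settle whether a shared number marks a pair, and the labels do not say so. In the block the members' log2 fold changes were 0.60 for Trp53, -1.52 for Mdm2, -0.90 for Mdm4 and 2.15 for Ccng1, each with an adjusted p of 1 by edgeR. Leaving out pools gave between 3 and 56 calls (0.030% to 0.567%), with log2 fold changes of -0.16 to 0.81 for Trp53, -1.96 to -0.29 for Mdm2, -1.31 to -0.57 for Mdm4 and -0.076 to 1.48 for Ccng1, and the sign of Trp53 turned without non-neighboring pool 2 (-0.096), while that of Ccng1 turned only without both pools numbered 5. The count fell to 27, 9, 18, 15 and 13 without non-neighboring pools 1, 3, 4, 5 and 7 and to 12, 3 and 8 without neighboring pools 4, 5 and 6. No member was called in any of these fits. Exons of Trp63 detected in oocytes numbered 3 as reported and 11 at 1 read or more. The causes of these changes were not tested. Depth limits the members that are near 0, since in the shallowest cell, with 12748 reads, a gene below 3 reads cannot be told from absence.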
